A study of Mus musculus with 27 samples.

Results

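The genes described here encode the subunits of the Polycomb repressive complexes and the enzymes that remove their mark, followed through the pluripotent states of a mouse stem cell study. The members were 31 gene symbols, chosen by name and not by level, and all 31 were found among the 23604 usable entries of the bulk RNA-seq table. The bulk data held 19 libraries, all labelled wild type. Naive mouse embryonic stem cells (mESCs, 2 libraries) grew without feeders in N2B27 with inhibitors of MEK and GSK3 and with LIF. Epiblast-like cells (EpiLCs, 2 libraries) grew in N2B27 with KSR, Activin A and bFGF2, and Epiblastoids (1 library each on days 2, 3 and 4) in the same factors but embedded in Matrigel. Formative pluripotent stem cells (fPSCs) were also embedded in Matrigel and grew in Activin A and bFGF2 with XAV939, a tankyrase inhibitor that lowers Wnt/β-catenin activity. They gave 1 library at passage 1 (P1) and 1 each at P10, P20 and P30. The mESCs, EpiLCs and EpiSCs were not embedded, so embedding and state cannot be told apart in their comparisons with fPSCs. A further 4 fPSC libraries carry a line in their titles (CMT P11, 46C P24, BVSC P14 and ROSAmTmG P12, called named-line fPSCs here), and 2 came from fPSCs derived from E5.5 and E6.5 epiblasts, both at P10. By the study's methods P1 to P30 are of the CMT line, as is CMT P11, which had been cryopreserved, and 46C (Sox1-GFP), BVSC (Blimp1 and Stella) and ROSAmTmG are reporter lines. Primed epiblast stem cells (EpiSCs, 2 libraries) grew on mitomycin-treated mouse embryonic fibroblasts in Activin A, bFGF2, KSR and XAV939. Chromatin and DNA methylation were read in fPSCs at P10, and single cells in 4 fPSC clones.

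Polycomb repressive complex 2 (PRC2) methylates lysine 27 of histone H3 and places the H3K27me3 mark. Its catalytic subunit is Ezh2 or Ezh1, which acts together with Eed, Suz12 and a histone chaperone (Rbbp4 or Rbbp7), and accessory proteins such as Jarid2, Aebp2 and the Polycomb-like proteins Mtf2, Phf1 and Phf19 guide it to chromatin. Polycomb repressive complex 1 (PRC1) ubiquitinates histone H2A through Rnf2 or Ring1. Each PRC1 contains 1 of the PCGF proteins; the canonical forms add a CBX protein, which reads H3K27me3, and a PHC protein, and the variant forms add Rybp or Yaf2. Kdm6a and Kdm6b are the demethylases that take methyl groups off lysine 27. In pluripotent cells these complexes hold developmental genes at a low level.

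Levels are given as FPKM, fragments scaled to transcript length and to the mapped total, a value per length that allows genes to be set side by side. Between 10034 and 10933 genes reached 1 FPKM per library, and the read depth behind a value is unknown. The states were checked against their markers. The summed FPKM of 8 naive markers was 1210 to 1370 in mESCs and at most 93.5 in every other library. That of 5 formative markers was 32.2 to 44.8 in mESCs and 903 to 958 in EpiLCs. The formative sum was 660 to 841 in fPSCs P10 to P30 and 223 to 231 in EpiSCs. That of 5 primed markers was 77.8 to 88.1 in EpiSCs and 26.5 to 62.1 in fPSCs P10 to P30. The primed sum was 83.4 to 90.9 in epiblast-derived fPSCs, 16.4 to 114 in named-line fPSCs and 123 in Epiblastoids on day 4. It thus did not set EpiSCs apart from all other libraries. Of 10 fibroblast genes, 6 reached 1 FPKM in EpiSCs, and their sum was 206 to 275 FPKM there against at most 26.7 in any other library, with Col1a1 at 111 and 153 FPKM. The EpiSC cultures stood on fibroblast feeders, and the part of this RNA in the values of EpiSCs was not tested. The summed FPKM of 4 endoderm genes was 118 in Epiblastoids on day 4 and reached 81.6 among the named-line fPSCs, in 46C P24. In such bulk samples a smaller share of cells of a type and less RNA per cell cannot be told apart.

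Groups were compared with limma on log2(FPKM + 1) over the 12562 genes that reached 1 FPKM in 2 or more of 15 libraries, a filter that all 31 members passed. A gene counted as changed at a Benjamini-Hochberg adjusted p under 0.05 with a fold of at least 1.5. Nothing says that libraries of a group came from separate cultures, so the p-values measure the spread between these libraries. For each gene that spread was pooled within the groups of all 15 libraries, not only the groups compared. It thus includes differences between the passages P10 to P30, between the named lines and between the epiblast-derived fPSCs. In EpiLCs against mESCs 11 of 31 members changed (35.5%, 5 higher and 6 lower), against 37.9% of all genes tested (16% higher and 21.9% lower). In EpiSCs against mESCs 17 changed (54.8%, 7 higher and 10 lower), against 55.4% of all genes (25.8% and 29.7%). In fPSCs at P10 to P30 against mESCs 19 changed (61.3%, 9 higher and 10 lower), against 50.1% (19.1% and 31.1%). The shares of members changed were thus close to those of all genes in the first pair of comparisons and somewhat above in the third. These comparisons share the mESC libraries. In fPSCs against EpiLCs 9 members changed (29%, 4 higher and 5 lower), against 24.6% of all genes (9.23% and 15.4%), and in fPSCs against EpiSCs 10 changed (32.3%, 5 higher and 5 lower), against 30.2% (9.75% and 20.4%). With the libraries scaled to 1 upper quartile the splits became 6 higher to 4 lower in EpiLCs against mESCs and 7 higher to 5 lower in fPSCs against EpiLCs. This scaling moved the median of all genes from -0.06 to 0.06 in EpiLCs against mESCs, from -0.17 to 0.01 in fPSCs against mESCs and from -0.04 to 0.07 in fPSCs against EpiSCs, on the log2 scale. The libraries of the groups did not overlap for 18 members in EpiLCs against mESCs (68.1% of all genes), 25 in EpiSCs against mESCs (80.8%), 26 in fPSCs against mESCs (74.1%), 17 in fPSCs against EpiLCs (57.5%) and 25 in fPSCs against EpiSCs (65.4%), so a lack of overlap was common in such small groups. In all, 24 of the 31 members changed in at least 1 of these 5 comparisons, and Rbbp7, Jarid2, Phf19, Rnf2, Rybp, Kdm2b and Kdm6a, 7 genes, changed in none.

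**Figure D1:**
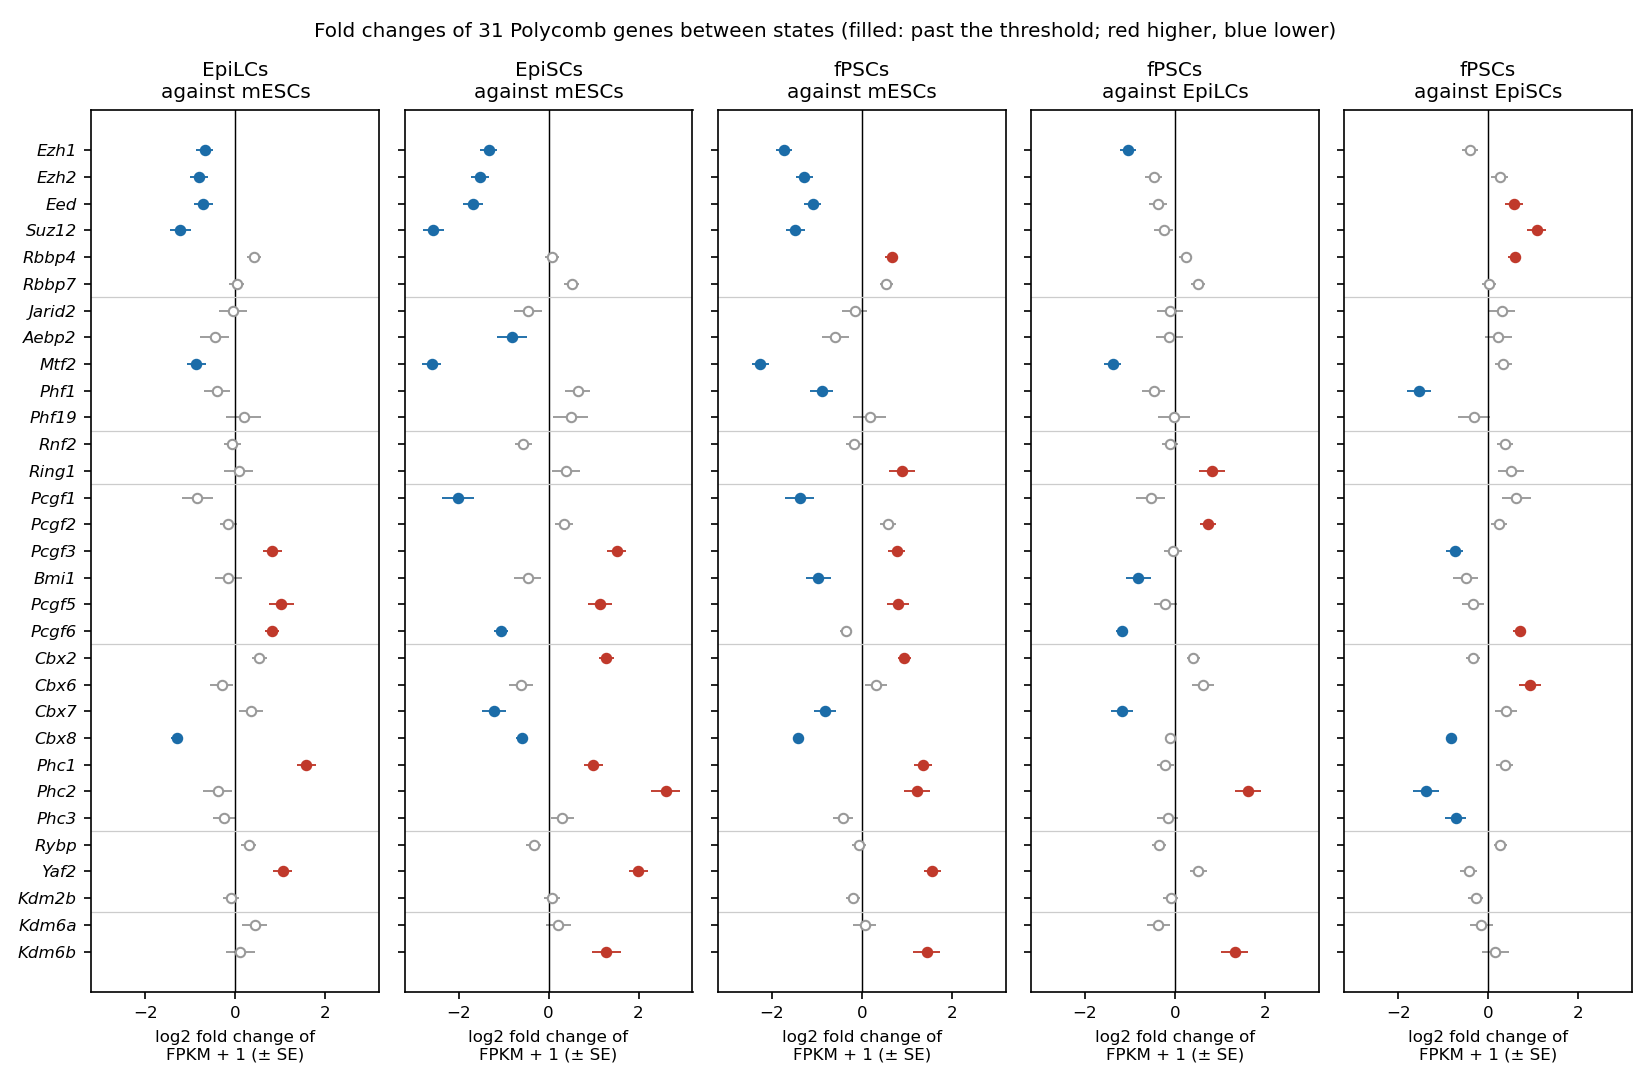
The log2 fold change of FPKM + 1 with its standard error is plotted for each of the 31 members (rows, grouped by complex) in the 5 comparisons between states (panels); filled points are past the threshold, red higher and blue lower in the first-named group. The PRC2 core genes Ezh1, Ezh2, Eed and Suz12 lie to the left of 0 in each panel against mESCs, while Phc1 and Yaf2 lie to the right.

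The catalytic core of PRC2 fell on leaving the naive state. Ezh1, Ezh2, Eed and Suz12 were lower than in mESCs in EpiLCs, in fPSCs and in EpiSCs, 4 of the 6 core genes in each comparison. Among all genes tested, 21.9%, 31.1% and 29.7% were called lower in these comparisons. In EpiLCs Suz12 alone of the 4 kept its call under every alternative. The chaperones Rbbp4 and Rbbp7 were not lower in any comparison. Suz12, the subunit that holds the core together, stood at 62.8 and 67.6 FPKM in mESCs, at 25.5 and 29 in EpiLCs, at 25.6, 20.8 and 22.2 in fPSCs P10, P20 and P30, and at 11.1 and 9.42 in EpiSCs. The mESC libraries were above every other library and the EpiSC libraries below every other library. Suz12 fell, with a log2 difference of -1.23 in EpiLCs (SE 0.23, limma adjusted p = 0.000972), -1.48 in fPSCs (SE 0.21, limma adjusted p = 6.63e-05) and -2.56 in EpiSCs (SE 0.23, limma adjusted p = 8.92e-07), each against mESCs. Between the later states, Suz12 was higher in fPSCs than in EpiSCs by 1.08 (SE 0.21, limma adjusted p = 0.00154) and differed from EpiLCs by -0.25 (SE 0.21, limma adjusted p = 0.42).

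Ezh2, the main methyltransferase of dividing cells, was at 52.7 and 62.5 FPKM in mESCs, at 34.2 and 30.8 in EpiLCs, at 19.7, 27.3 and 23 in fPSCs and at 20.7 and 17.8 in EpiSCs. The ranges of fPSCs and EpiSCs overlapped, and both lay below those of mESCs and EpiLCs. Against mESCs Ezh2 fell, with a log2 difference of -0.80 in EpiLCs (SE 0.20, limma adjusted p = 0.00662), -1.27 in fPSCs (SE 0.19, limma adjusted p = 7.23e-05) and -1.53 in EpiSCs (SE 0.20, limma adjusted p = 2.88e-05). Its paralogue Ezh1, the weaker enzyme known from resting cells, was the lower of the pair in every library, at 8.77 and 7.05 FPKM in mESCs, 4.33 and 4.69 in EpiLCs, 1.55, 1.71 and 1.77 in fPSCs, and 3.06 and 2.05 in EpiSCs. Ezh1 was lowest in fPSCs P10 to P30 among these states, without overlap with the others. The named-line fPSCs held 2.32 to 3.49 FPKM of Ezh1, which overlapped EpiSCs. Ezh1 fell, with a log2 difference of -1.73 in fPSCs against mESCs (SE 0.18, limma adjusted p = 3.05e-06) and -1.04 in fPSCs against EpiLCs (SE 0.18, limma adjusted p = 0.000869). The EpiLC calls were lost for Ezh2 without mESCs replicate 2 (-0.68) and for Ezh1 without mESCs replicate 1 (-0.55) or EpiLCs replicate 1 (-0.64), and with the named-line fPSCs in place of P10 to P30 Ezh2 differed from mESCs by -0.55 and Ezh1 from EpiLCs by -0.57, both short of the fold of 1.5.

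Eed, which binds H3K27me3 and stimulates the enzyme, was at 76.5 and 74.2 FPKM in mESCs, 35.2 and 59 in EpiLCs, 39.7, 34.3 and 30.9 in fPSCs and 23.5 and 22.2 in EpiSCs. The EpiLC libraries were far apart, and 1 of them lay within the range of fPSCs. Eed fell, with a log2 difference of -1.09 in fPSCs (SE 0.20, limma adjusted p = 0.000422) and -1.68 in EpiSCs (SE 0.22, limma adjusted p = 2.2e-05) against mESCs, and -0.71 in EpiLCs (SE 0.22, limma adjusted p = 0.0181). The EpiLC calls of Eed and Ezh1 were lost with upper-quartile scaling, and that of Eed was also lost without EpiLCs replicate 1 (-0.35) or either mESC library (-0.69 and -0.73). Rbbp4 was at 113 and 110 FPKM in mESCs and at 194, 184 and 156 in fPSCs, higher by 0.66 (SE 0.14, limma adjusted p = 0.00151). In the named-line fPSCs Rbbp4 was at 91.2 to 117 FPKM, and with those libraries in place of P10 to P30 the difference from mESCs was -0.05. Against EpiSCs the calls of Eed (0.59, SE 0.20, limma adjusted p = 0.0353) and Rbbp4 (0.59, SE 0.14, limma adjusted p = 0.00608) were lost when fPSCs P10, fPSCs P20 or EpiSCs replicate 2 was left out (0.49 to 0.60 and 0.52 to 0.56), that of Eed also without EpiSCs replicate 1 (0.63). Rbbp7 was at 104 and 123 FPKM in mESCs and at 151 to 176 in fPSCs, a difference of 0.55 (SE 0.15, limma adjusted p = 0.00793) that did not reach the fold of 1.5.

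Among the accessory subunits of PRC2, Mtf2 fell most. Mtf2 (also known as Pcl2), the Polycomb-like protein most studied in embryonic stem cells, was at 44.8 and 60.8 FPKM in mESCs, at 25.1 and 31.5 in EpiLCs, at 11, 9.62 and 9.81 in fPSCs and at 7.11 and 8.5 in EpiSCs. The 4 states did not overlap. It fell, with a log2 difference of -0.87 in EpiLCs (SE 0.21, limma adjusted p = 0.00448), -2.26 in fPSCs (SE 0.19, limma adjusted p = 4.5e-07) and -2.60 in EpiSCs (SE 0.21, limma adjusted p = 2.53e-07) against mESCs, and -1.39 in fPSCs against EpiLCs (SE 0.19, limma adjusted p = 0.000171). The named-line fPSCs held 19.1 to 27.8 FPKM of Mtf2, and with them in place of P10 to P30 the difference from EpiLCs was -0.32 and not past the threshold. Without mESCs replicate 2 the EpiLC difference from mESCs was -0.65 and no longer past the threshold.

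The other Polycomb-like genes were scarce. Phf1 was at 1.98 and 3.42 FPKM in mESCs, 0.97, 0.81 and 1.13 in fPSCs and 3.42 and 6.34 in EpiSCs, and it was lower in fPSCs than in EpiSCs, with a log2 difference of -1.53 (SE 0.26, limma adjusted p = 0.000469), a call lost with the named-line fPSCs in place of P10 to P30 (-0.51) and with all 7 libraries, P10 to P30 and named-line (-0.95). Its call in fPSCs against mESCs (-0.89, SE 0.26, limma adjusted p = 0.0101) turned to 0.13 with the named-line fPSCs and was lost without mESCs replicate 2 (-0.60). Phf19 ranged from 0.30 to 3.84 FPKM over the 19 libraries, and its highest value was in E5.5-derived fPSCs. Jarid2, which recruits PRC2 and stimulates it, stayed between 17.6 and 39 FPKM and passed no threshold, with differences of -0.46 to 0.31 in the 5 comparisons between states. Aebp2, the partner that defines the same form of PRC2, was at 23.3 and 26 FPKM in mESCs and at 18.6 and 9.77 in EpiSCs, lower, with a log2 difference of -0.82 (SE 0.33, limma adjusted p = 0.0457), a call that was lost without the filter on low values and in 5 further alternatives, among them without EpiSCs replicate 2 (-0.38) or either mESC library (-0.89 and -0.74).

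**Figure D2:**
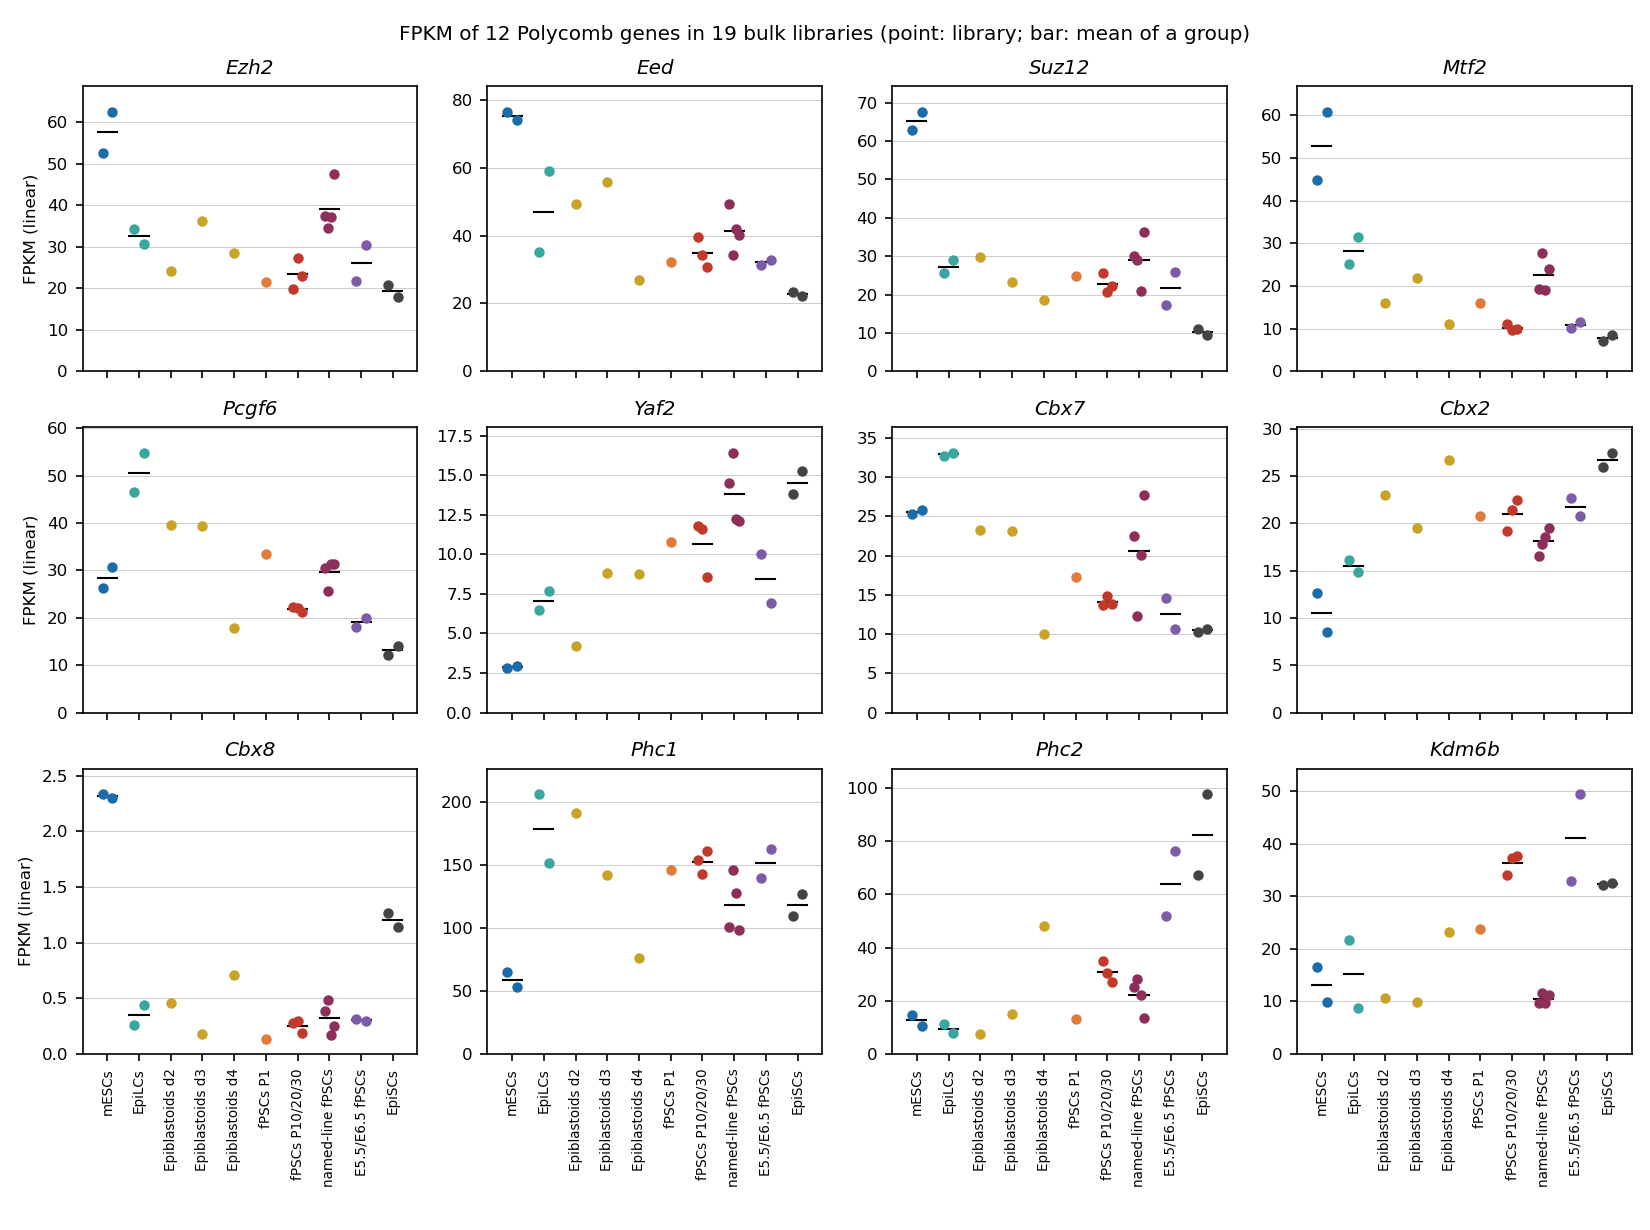
FPKM on linear axes from 0 for 12 members in the 19 bulk libraries (points), grouped by state along the horizontal axis; short bars are group means. Ezh2, Eed, Suz12 and Mtf2 have their highest points in mESCs, Phc2 its highest in EpiSCs (67.3 and 97.6 FPKM), and Pcgf6 its highest in EpiLCs (46.6 and 54.8 FPKM).

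Of the catalytic subunits of PRC1, Ring1 was called and Rnf2 was not. Rnf2 (Ring1B), the main H2A ligase of embryonic stem cells, lay between 18.8 and 36.1 FPKM in the 19 libraries and changed in no comparison. Ring1 (Ring1A) was at 4.44 and 5.62 FPKM in mESCs, 4.67 and 6.02 in EpiLCs, 9.82, 9.58 and 11.2 in fPSCs and 7.98 and 5.88 in EpiSCs. The P10 to P30 libraries were above all libraries of the other states, with a difference of 0.90 from mESCs (SE 0.29, limma adjusted p = 0.0183) and of 0.83 from EpiLCs (SE 0.29, limma adjusted p = 0.0485). The latter was lost in 8 alternatives, among them a pseudocount of 0.1 and each left-out library (0.67 to 0.98), and the former without mESCs replicate 1 (0.76) or fPSCs P30 (0.83).

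The PCGF genes, whose products define the 6 kinds of PRC1, moved in different directions. Pcgf6, the subunit of a variant PRC1 that acts at germline genes, was at 26.3 and 30.7 FPKM in mESCs, 46.6 and 54.8 in EpiLCs, 22.4, 22.1 and 21.3 in fPSCs and 12.2 and 14.1 in EpiSCs. With P10 to P30 as the fPSCs, the 4 states did not overlap, with EpiLCs above and EpiSCs below the others. The named-line fPSCs held 25.6 to 31.4 FPKM of Pcgf6, which overlapped mESCs, and differed from mESCs by 0.06. Against mESCs Pcgf6 rose in EpiLCs (0.81, SE 0.15, limma adjusted p = 0.000759) and fell in EpiSCs (-1.06, SE 0.15, limma adjusted p = 4.61e-05), and it was lower in fPSCs than in EpiLCs (-1.17, SE 0.14, limma adjusted p = 4.51e-05). It was the only member to change in opposite directions in EpiLCs and EpiSCs against mESCs, and these share the mESC libraries.

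Pcgf3 and Pcgf5, whose products form closely related variant complexes, were both higher than in mESCs in each of the 3 other states. Pcgf3 was at 7.61 and 7.28 FPKM in mESCs, 17 and 11.3 in EpiLCs, 14.3, 14.9 and 11.5 in fPSCs and 23.6 and 22.8 in EpiSCs. It rose by 0.82 in EpiLCs (SE 0.21, limma adjusted p = 0.00756), by 0.78 in fPSCs (SE 0.19, limma adjusted p = 0.00397) and by 1.52 in EpiSCs (SE 0.21, limma adjusted p = 4.31e-05). Pcgf5 was at 1.13 and 2.23 FPKM in mESCs and at 3.28 to 5.25 in EpiLCs, fPSCs and EpiSCs; it rose by 1.02 in EpiLCs (SE 0.28, limma adjusted p = 0.00953), by 0.81 in fPSCs (SE 0.25, limma adjusted p = 0.0145) and by 1.15 in EpiSCs (SE 0.28, limma adjusted p = 0.00291). With the named-line fPSCs, neither gene was past the threshold against mESCs (0.39 and 0.35). The EpiLC calls were lost for Pcgf3 without EpiLCs replicate 1 (0.54) and for Pcgf5 without EpiLCs replicate 2 (0.88) or mESCs replicate 1 (0.72), and the fPSC call of Pcgf5 was lost without the latter (0.51). Pcgf1, the PCGF of the complex that Kdm2b brings to CpG islands, was at 7.92 and 13.6 FPKM in mESCs, 3.21 and 8.56 in EpiLCs, 2.77, 3.31 and 4.16 in fPSCs and 1.93 and 1.72 in EpiSCs, falling, with a log2 difference of -1.38 in fPSCs (SE 0.32, limma adjusted p = 0.00246) and -2.01 in EpiSCs (SE 0.35, limma adjusted p = 0.000272) against mESCs.

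Pcgf2 (Mel18) and Bmi1 (Pcgf4), which build the canonical PRC1, were at unlike levels, with Pcgf2 the higher in every library. Bmi1 was at 3.63 and 5.66 FPKM in mESCs, 4.92 and 3.19 in EpiLCs, 2.55, 1.71 and 1.39 in fPSCs and 2.74 and 3.33 in EpiSCs. It fell, with a log2 difference of -0.97 in fPSCs against mESCs (SE 0.28, limma adjusted p = 0.00999), and its call against EpiLCs (-0.81, SE 0.28, limma adjusted p = 0.0446) was lost in 8 alternatives, among them without either EpiLC library (-0.56 and -1.06), fPSCs P20 (-0.77) or fPSCs P30 (-0.68). The call against mESCs was lost without mESCs replicate 2 (-0.70) and with the named-line fPSCs (-0.66). Pcgf2 was at 32.6, 37.2 and 36.7 FPKM in fPSCs against 24.1 and 18 in EpiLCs, higher by 0.74 (SE 0.18, limma adjusted p = 0.00788). In the named-line fPSCs Pcgf2 was at 19.5 to 20.2 FPKM, and that difference from EpiLCs became -0.08; it was also lost without EpiLCs replicate 2 (0.53).

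The PHC genes, whose products polymerise and link PRC1 complexes, rose at different times. Phc1 was at 64.6 and 52.8 FPKM in mESCs, 206 and 151 in EpiLCs, 154, 142 and 161 in fPSCs and 109 and 127 in EpiSCs. Every library of the 3 later states was above both mESC libraries. Phc1 rose by 1.58 in EpiLCs (SE 0.21, limma adjusted p = 6.28e-05), by 1.37 in fPSCs (SE 0.19, limma adjusted p = 5.78e-05) and by 1.00 in EpiSCs (SE 0.21, limma adjusted p = 0.00129) against mESCs.

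Phc2 did not follow Phc1. Phc2 was at 14.7 and 10.5 FPKM in mESCs, 11.1 and 7.72 in EpiLCs, 35, 30.3 and 27 in fPSCs and 67.3 and 97.6 in EpiSCs. The mESC and EpiLC ranges overlapped, fPSCs P10 to P30 lay above both, and EpiSCs lay above fPSCs. The named-line fPSCs held 13.4 to 28.3 FPKM of Phc2, the lowest of them, ROSAmTmG P12, within the mESC range. With them in place of P10 to P30 the difference from mESCs was 0.74. The differences were -0.39 in EpiLCs (SE 0.32, limma adjusted p = 0.361), 1.23 in fPSCs (SE 0.29, limma adjusted p = 0.00302) and 2.61 in EpiSCs (SE 0.32, limma adjusted p = 1.43e-05) against mESCs, 1.62 in fPSCs against EpiLCs (SE 0.29, limma adjusted p = 0.00134) and -1.38 in fPSCs against EpiSCs (SE 0.29, limma adjusted p = 0.00269), the last lost without EpiSCs replicate 2 (-1.11). The EpiSC libraries carry the fibroblast RNA given above (206 to 275 FPKM), whose part in these values was not tested. Phc2 was at 48 FPKM in Epiblastoids on day 4, where the summed fibroblast markers were 26.7 FPKM. Most of that sum was Pdgfra (20.1 FPKM), with Col1a1 at 0.87 FPKM. In E5.5- and E6.5-derived fPSCs Phc2 was at 51.7 and 76.2 FPKM, where the summed fibroblast markers were 5.72 to 5.86 FPKM. Phc3 lay between 0.28 and 1.94 FPKM, and was called only in fPSCs against EpiSCs (-0.72, SE 0.23, limma adjusted p = 0.0268), a call lost without EpiSCs replicate 2 (-0.36), fPSCs P10 (-0.72) or fPSCs P20 (-0.67), with the named-line fPSCs (-0.21) and with all 7 libraries (-0.43).

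The CBX genes showed a change of order. Cbx7, the main chromodomain protein of canonical PRC1 in embryonic stem cells, was at 25.3 and 25.9 FPKM in mESCs, 32.7 and 33 in EpiLCs, 13.6, 14.8 and 13.8 in fPSCs and 10.3 and 10.6 in EpiSCs. The libraries of each state lay close together and the states did not overlap. Cbx7 fell, with a log2 difference of -0.82 in fPSCs (SE 0.25, limma adjusted p = 0.012) and -1.21 in EpiSCs (SE 0.27, limma adjusted p = 0.00171) against mESCs, and -1.17 in fPSCs against EpiLCs (SE 0.25, limma adjusted p = 0.00337). The named-line fPSCs spread from 12.3 FPKM in 46C P24 to 27.7 in ROSAmTmG P12, and with them the difference from mESCs was -0.35 and no longer past the threshold, as it was with upper-quartile scaling (-0.60) and without either mESC library (-0.84 and -0.80).

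Cbx2, which compacts chromatin and is known for its part in differentiating cells, went the other way. Cbx2 was at 12.6 and 8.54 FPKM in mESCs, 16.1 and 14.9 in EpiLCs, 19.2, 21.4 and 22.4 in fPSCs and 26 and 27.4 in EpiSCs. No state overlapped another. It rose by 0.95 in fPSCs (SE 0.15, limma adjusted p = 0.000155) and by 1.28 in EpiSCs (SE 0.17, limma adjusted p = 2.21e-05) against mESCs, and the rise of 0.54 in EpiLCs (SE 0.17, limma adjusted p = 0.0197) was short of the fold of 1.5. Cbx8, the neighbour of Cbx2 on chromosome 11, was at 2.33 and 2.3 FPKM in mESCs, 0.26 and 0.44 in EpiLCs, 0.28, 0.30 and 0.18 in fPSCs and 1.27 and 1.14 in EpiSCs, so that the pair of neighbours moved in opposite directions in fPSCs and EpiSCs against mESCs. Cbx8 fell, with a log2 difference of -1.30 in EpiLCs (SE 0.13, limma adjusted p = 4.33e-06), -1.41 in fPSCs (SE 0.12, limma adjusted p = 4.67e-07) and -0.59 in EpiSCs (SE 0.13, limma adjusted p = 0.00157) against mESCs, on a scale that understates the change of such low values. The EpiSC call was lost without mESCs replicate 1 (-0.58) or EpiSCs replicate 2 (-0.55). Cbx6 changed once, being higher in fPSCs (18.2, 23.1 and 30.9 FPKM) than in EpiSCs (13.2 and 10.7 FPKM) by 0.93 (SE 0.24, limma adjusted p = 0.00887), which was lost without EpiSCs replicate 2 (0.79), with the named-line fPSCs (0.42) and with all 7 libraries (0.64). Cbx6 shares exons on its strand with Npcd in the annotation, and their reads may not be told apart.

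Of Rybp, Yaf2 and Kdm2b, which belong to variant PRC1 beside the PCGF proteins, Yaf2 was called. Rybp and Yaf2 are paralogues that take the place of the CBX proteins and stimulate the ligase. Yaf2 was at 2.82 and 2.97 FPKM in mESCs, 6.49 and 7.68 in EpiLCs, 11.8, 11.6 and 8.58 in fPSCs and 13.8 and 15.3 in EpiSCs. With P10 to P30 as the fPSCs, no state overlapped another. Yaf2 rose by 1.05 in EpiLCs (SE 0.21, limma adjusted p = 0.0014), by 1.57 in fPSCs (SE 0.19, limma adjusted p = 1.48e-05) and by 1.99 in EpiSCs (SE 0.21, limma adjusted p = 3.38e-06) against mESCs. The named-line fPSCs held 12.1 to 16.4 FPKM of Yaf2, which overlapped EpiSCs, and differed from EpiSCs by -0.08. Rybp lay between 18.7 and 37.4 FPKM in the 19 libraries and Kdm2b, which binds unmethylated CpG islands, between 19.4 and 36.3 FPKM. Neither was called.

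The demethylases were unlike each other. Kdm6a (Utx) lay between 6.03 and 13.9 FPKM in the 19 libraries and was not called. Kdm6b (Jmjd3) was at 16.4 and 9.76 FPKM in mESCs, 21.6 and 8.71 in EpiLCs, 34, 37.2 and 37.7 in fPSCs P10, P20 and P30 and 32.2 and 32.6 in EpiSCs. It was higher by 1.44 in fPSCs (SE 0.30, limma adjusted p = 0.00112) and by 1.28 in EpiSCs (SE 0.33, limma adjusted p = 0.00419) than in mESCs. The named-line fPSCs, however, held 9.57 to 11.5 FPKM, between the lowest and the highest of the mESC and EpiLC libraries, and with them the difference from mESCs was -0.26 in place of 1.44. The EpiSC call was lost without mESCs replicate 2 (0.94), and that of fPSCs against EpiLCs (1.33, SE 0.30, limma adjusted p = 0.00504) without EpiLCs replicate 2 (0.72).

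The fPSC libraries were therefore compared among themselves. In named-line fPSCs against fPSCs P10 to P30, 6 of 31 members changed (19.4%, 3 higher and 3 lower), against 25.6% of all genes tested (18% higher and 7.66% lower), so the members moved no more often than other genes. Lower were Kdm6b (-1.70, SE 0.25, limma adjusted p = 0.000409), Pcgf2 (-0.81, SE 0.15, limma adjusted p = 0.00147) and Rbbp4 (-0.71, SE 0.12, limma adjusted p = 0.00085). Mtf2 was higher by 1.06 (SE 0.16, limma adjusted p = 0.000448), Phf1 by 1.02 (SE 0.21, limma adjusted p = 0.0032) and Ezh2 by 0.73 (SE 0.16, limma adjusted p = 0.00351), the last lost with upper-quartile scaling. With that scaling the split of calls became 2 higher to 6 lower. Ezh2 was at 37.4 FPKM in CMT P11, 34.6 in 46C P24, 37.2 in BVSC P14 and 47.5 in ROSAmTmG P12, each above the highest of P10 to P30 (27.3 FPKM). Groups did not overlap for 15 members (46.5% of all genes). With the named-line fPSCs in place of P10 to P30, 11 members changed against mESCs (44.5% of all genes), 6 against EpiLCs (22.7%) and 13 against EpiSCs (47.1%). The named-line libraries also carry other labels for their making (a NEBNext kit on total RNA treated with DNase), so that across the 4 libraries line and labelled preparation cannot be told apart. CMT P11 is of the same line as P10 and near it in passage, but was cryopreserved and carries the other labels. It held 9.73 FPKM of Kdm6b against 34 at P10, 19.5 of Pcgf2 against 32.6, 110 of Rbbp4 against 194 and 19.2 of Mtf2 against 11, and with 1 library each this has no test.

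In epiblast-derived fPSCs against fPSCs at P10 to P30 no member was called by limma, against 1.31% of all genes tested (0.613% higher and 0.693% lower), and 3 members had an unadjusted p under 0.05. Groups did not overlap for 6 members (30.5% of all genes). The summed endoderm markers were 24.8 to 25.2 FPKM in the epiblast-derived libraries against 1.57 to 7.73 FPKM in P10 to P30, and their part in the values was not tested. Phc2, at 51.7 and 76.2 FPKM against 27 to 35, differed by 1.01 (SE 0.29, limma adjusted p = 0.135) without overlap, and Ring1, at 6.8 and 2.21 against 9.58 to 11.2, by -1.16 (SE 0.29, limma adjusted p = 0.082).

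The days of Epiblastoids and the first passage of fPSCs have 1 library each, so their ratios carry no test, and a fold of 2 or more in FPKM + 1, which is less than the fold in FPKM itself, was noted among the 29 members at 1 FPKM or more in either library. From day 2 to day 3, 1 member moved that far, against 5.58% of all genes (3.11% higher and 2.47% lower): Aebp2, from 35.7 to 12.6 FPKM. Phc2, from 7.32 to 14.9 FPKM, and Yaf2, from 4.23 to 8.8 FPKM, fell short of it on this scale. From day 3 to day 4, 6 members did (2 higher and 4 lower), against 16.1% of all genes (7.85% and 8.22%). Phc2 went from 14.9 to 48 FPKM and Kdm6b from 9.9 to 23.3 FPKM, while Eed went from 56 to 26.9, Pcgf6 from 39.4 to 17.9, Cbx7 from 23.1 to 10 and Cbx6 from 18.6 to 7.92 FPKM. In Cbx7 the day 4 level lay beside that of EpiSCs (10.3 and 10.6 FPKM). The summed endoderm markers rose from 0.27 to 118 FPKM over the same step, and their part in these values was not tested. In fPSCs P1 against the mean of EpiLCs no member differed that far, against 6.29% of all genes (1.83% higher and 4.46% lower), although Ezh1 at 1.77 FPKM against a mean of 4.51 and Pcgf1 at 2.68 against 5.89 came near it; Phc2 was at 13.1 FPKM and Kdm6b at 23.7 FPKM at P1, both below their levels at P10 to P30, while Yaf2 at 10.8 FPKM already lay within the range of the later passages and Ezh1 at 1.77 FPKM beside it.

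Ratios between genes within a library depend little on how libraries are scaled. In all, 14 pairs were followed over the 19 libraries as log2 ratios of FPKM + 1, without a test. The pairs were paralogues, except Jarid2 and Aebp2, which are partners in the same form of PRC2. In 9 pairs the order was the same in every library. Ezh2 stood above Ezh1 by 2.42 to 3.84, although both fell after the naive state. The Cbx7/Cbx2 ratio was 0.95 and 1.49 in mESCs and 0.98 and 1.10 in EpiLCs, between -0.67 and -0.46 in fPSCs P10 to P30 and -1.29 and -1.26 in EpiSCs, so Cbx7 was the higher in the early states and Cbx2 in the later ones.

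The pair crossed over within the Epiblastoids, from 0.01 on day 2 and 0.23 on day 3 to -1.32 on day 4. In the named-line fPSCs the ratio ran from -0.50 to 0.48, on both sides of equality, with 46C P24 the lowest. The Phc1/Phc2 ratio was 2.06 and 2.22 in mESCs, 4.09 and 4.13 in EpiLCs, at most 2.53 in fPSCs P10 to P30 and 0.37 and 0.69 in EpiSCs, being highest where Phc1 had risen and Phc2 had not. The Rybp/Yaf2 ratio went from 2.74 and 2.79 in mESCs to 0.40 and 0.47 in EpiSCs, with fPSCs at 1.04 to 1.26. The Kdm6a/Kdm6b ratio was -2.27 to -1.91 in fPSCs P10 to P30 and -0.21 to 0.25 in the named-line fPSCs.

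**Figure D3:**
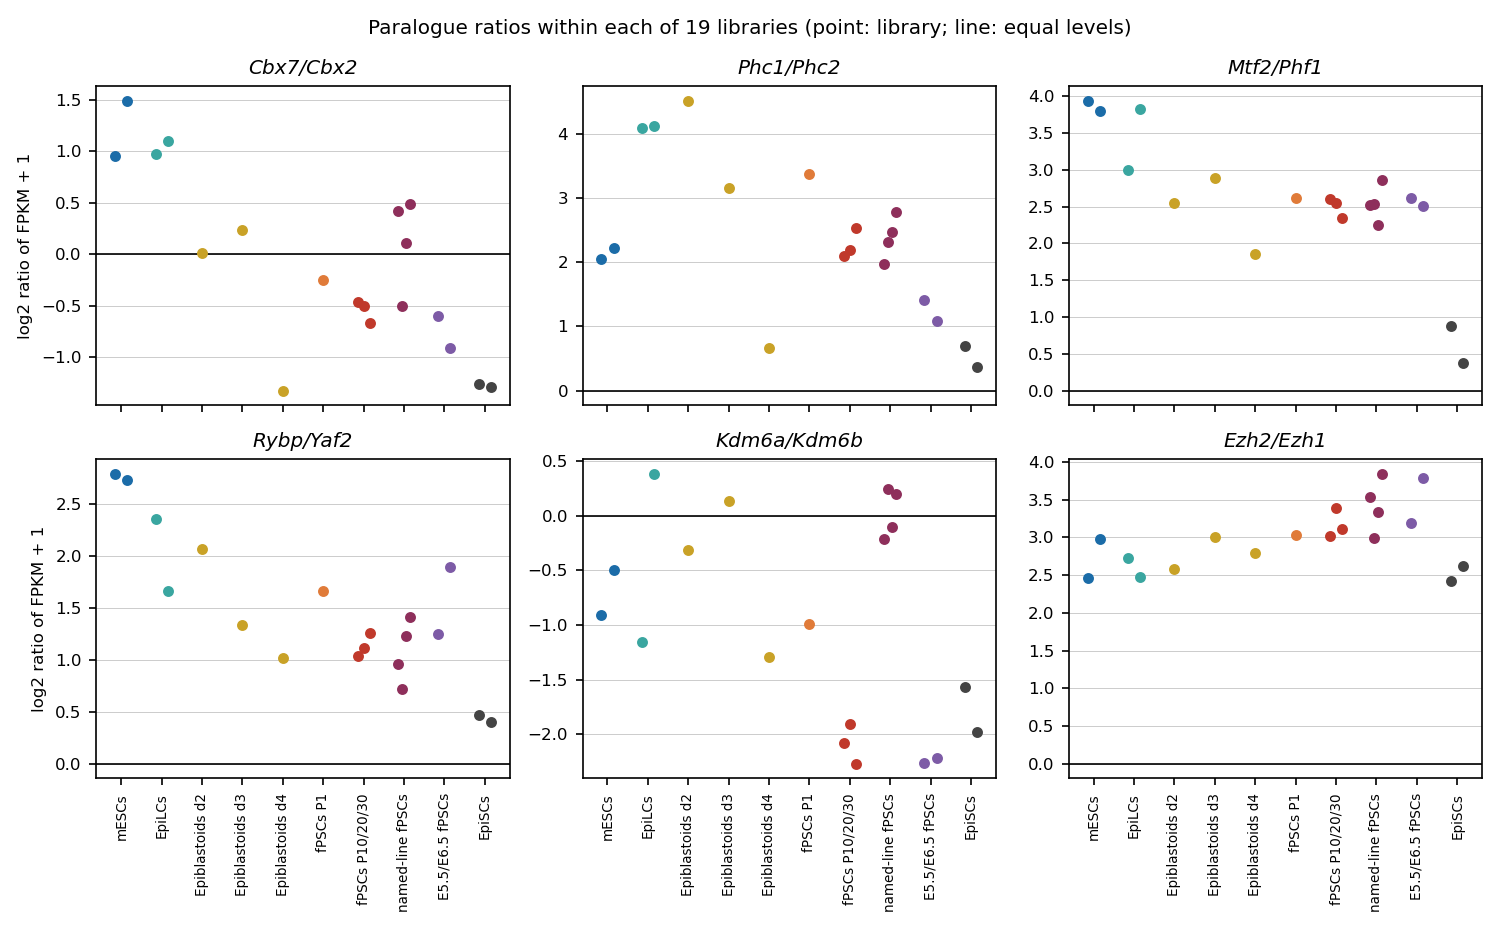
Log2 ratio of FPKM + 1 of 6 pairs of paralogues (panels) in each of the 19 libraries (points), grouped by state; the line at 0 marks equal levels. Cbx7/Cbx2 lies above 0 in mESCs and EpiLCs (0.95 to 1.49) and below 0 in EpiSCs and fPSCs P10 to P30, whereas Ezh2/Ezh1 stays between 2.42 and 3.84.

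Other genes of the pathway and of the opposing H3K4 methylation were counted beside the members. Of 38 further Polycomb genes listed, 35 were tested, and 21 changed in fPSCs against mESCs (9 higher and 12 lower), where 50.1% of all genes did (19.1% higher and 31.1% lower), with a median of 0.23 against -0.17 for all genes and -0.16 for the 31 members. Epop, a PRC2 cofactor of embryonic stem cells, was lower (-1.98, SE 0.17, limma adjusted p = 4.71e-07), and Foxk1, part of another Polycomb-related complex, was higher by 1.48 (SE 0.22, limma adjusted p = 7.07e-05). Csnk2b, a subunit of casein kinase 2, was higher by 1.56. Of 18 genes of H3K4 methylation 6 changed (2 higher and 4 lower), with a median of -0.25. Ash2l, a core subunit of those methyltransferases, was lower (-1.99, SE 0.19, limma adjusted p = 1.38e-06), while the catalytic subunit Setd1b was higher by 2.17 (SE 0.26, limma adjusted p = 1.43e-05). Dpy30, another core subunit, was also lower (-1.36). In EpiLCs against mESCs 14 of the 35 and 5 of the 18 changed (37.9% of all genes), and in EpiSCs against mESCs 20 and 9 did (55.4% of all genes).

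The chromatin of the members' own promoters was read in fPSCs at P10, from 1 file per mark of RPKM in 100 bp bins (mm9). The mean RPKM within 5000 bp of the outermost start site was ranked among 22072 promoters of protein-coding genes. A z-score over 1 had been planned as the call, but a few promoters with extreme bins set its SD, so that 0.068% of promoters passed for H3K27me3 and no member did. The rank is used in its place, a choice made after the values were seen. H3K27me3 was at or above the 90th percentile at 6 of 31 member promoters (10% of all promoters by construction): Cbx8 (3.67 RPKM, percentile 98.8), Bmi1 (3.34 RPKM, percentile 98.4), Phf19 (2.1 RPKM, percentile 94.5), Phc2 (1.75 RPKM, percentile 92.2), Cbx2 (1.63 RPKM, percentile 91.1) and Pcgf1 (1.5 RPKM, percentile 90). Gata4 and Pax6, developmental regulators known as Polycomb targets, were at 4.15 and 4.4 RPKM. The median of the members was 0.318 RPKM, against 0.376 RPKM for all promoters.

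The levels of these genes in fPSCs ranged widely. Cbx8, Phf19 and Bmi1 were at 0.18 to 2.55 FPKM in P10 to P30, whereas Cbx2 at 19.2 to 22.4 and Phc2 at 27 to 35 FPKM were well expressed. For Phc2 the result rests on the start chosen, because the start with the most H3K4me3 is another one further downstream, where H3K27me3 was 0.625 RPKM (percentile 69). For Pcgf1 it rests on the window, because H3K27me3 within 2000 bp was 0.895 RPKM (percentile 77.7).

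H3K4me3, the mark of active or poised promoters, was at or above the 90th percentile at 10 of 31 members (10% of all promoters). Kdm6b led with 6.87 RPKM (percentile 99.8), followed by Jarid2 with 6.07 RPKM (percentile 99.7), Pcgf2 with 5.39 RPKM and Phc1 with 4.77 RPKM. At these 4 promoters H3K27me3 was 0.114 to 0.159 RPKM, below the median of all promoters. Both the order and the calls for H3K4me3 depended on the window. Within 2000 bp Phc1 had the most of the members (6.49 RPKM). Kdm6b was then at percentile 84.7, Jarid2 at 80.1 and Ring1 at 69.4, all short of the call, while Suz12 at 93.4 and Mtf2 at 92 passed it. Bmi1 and Cbx8 alone were at or above the 90th percentile for both marks within 5000 bp, against 1.54% of all promoters. Within 2000 bp their H3K4me3 was at percentiles 73.8 and 73.3, so neither then passed for both marks. For 4 genes the outermost start was far from the start with the most H3K4me3: at the latter, Cbx7 had 4.27 RPKM of H3K4me3 in place of 0.344 RPKM and Kdm2b had 8.14 RPKM in place of 1.34 RPKM.

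DNA methylation within 1000 bp of the outermost start had a median of 0.162 over the 31 members, as the mean methylated fraction of 100 bp windows, and of 0.374 over all promoters. A value of 0.2 or lower was found at 19 members (61.3%) and at 30.4% of all promoters. Bmi1 at 0.0021 and Cbx8 at 0.012 were nearly free of methylation, Cbx2 was at 0.155, Suz12 at 0.133 and Kdm6b at 0.382. The files give no coverage and no replicates, so no error can be stated.

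The 300 bases before the outermost start of 5 members are given from the NCBIM37 (mm9) genome, 5′ to 3′ along the gene, with each CG dinucleotide, the site of DNA methylation, in capitals. They were picked to set 3 promoters with high H3K27me3 (Cbx8, Cbx2 and Bmi1) beside that of a PRC2 core gene without it (Suz12). Kdm6b was added as the member with the most H3K4me3 within 5000 bp of the outermost start. Within 2000 bp its H3K4me3 was 4.7 RPKM, below the 6.1 RPKM of Suz12. None of these stretches overlaps an annotated exon.
Cbx8, chr11:118902284-118902583, minus strand: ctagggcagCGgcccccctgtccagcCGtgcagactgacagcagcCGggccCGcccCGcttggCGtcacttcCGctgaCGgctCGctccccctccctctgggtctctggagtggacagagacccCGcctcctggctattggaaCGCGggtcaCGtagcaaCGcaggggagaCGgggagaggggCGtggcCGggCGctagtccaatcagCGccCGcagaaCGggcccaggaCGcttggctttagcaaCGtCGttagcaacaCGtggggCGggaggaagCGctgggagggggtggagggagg
Cbx2, chr11:118883976-118884275, plus strand: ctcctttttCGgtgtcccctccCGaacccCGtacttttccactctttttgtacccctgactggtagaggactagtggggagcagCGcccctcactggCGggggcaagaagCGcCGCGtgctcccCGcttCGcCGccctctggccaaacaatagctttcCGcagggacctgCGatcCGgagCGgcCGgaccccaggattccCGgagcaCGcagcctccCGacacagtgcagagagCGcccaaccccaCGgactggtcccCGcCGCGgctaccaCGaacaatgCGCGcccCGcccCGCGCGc
Bmi1, chr2:18598345-18598644, plus strand: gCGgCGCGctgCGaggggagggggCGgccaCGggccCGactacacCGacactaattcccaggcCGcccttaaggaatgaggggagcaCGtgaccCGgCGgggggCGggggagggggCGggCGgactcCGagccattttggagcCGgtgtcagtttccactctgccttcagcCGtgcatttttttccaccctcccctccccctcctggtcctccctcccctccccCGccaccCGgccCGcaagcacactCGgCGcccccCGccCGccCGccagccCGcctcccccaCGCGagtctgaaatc
Suz12, chr11:79806308-79806607, plus strand: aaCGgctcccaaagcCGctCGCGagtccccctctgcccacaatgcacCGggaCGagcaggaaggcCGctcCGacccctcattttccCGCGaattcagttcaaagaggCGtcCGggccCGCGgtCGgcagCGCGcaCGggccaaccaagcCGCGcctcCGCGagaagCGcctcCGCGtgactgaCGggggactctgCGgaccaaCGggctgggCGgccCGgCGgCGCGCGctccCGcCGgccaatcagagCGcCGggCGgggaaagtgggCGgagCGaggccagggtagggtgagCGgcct
Kdm6b, chr11:69227178-69227477, minus strand: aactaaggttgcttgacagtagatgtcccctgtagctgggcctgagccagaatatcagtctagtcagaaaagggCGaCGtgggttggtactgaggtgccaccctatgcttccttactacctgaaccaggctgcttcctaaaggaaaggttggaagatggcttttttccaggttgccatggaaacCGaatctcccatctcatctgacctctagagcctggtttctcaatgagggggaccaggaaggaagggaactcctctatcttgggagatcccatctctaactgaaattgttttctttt
The counts of CG were 27 in Cbx8, 31 in Cbx2, 29 in Bmi1, 42 in Suz12 and 3 in Kdm6b, against a median of 9 over the same stretch of all promoters and of 23 over the 31 members. As many CG as in Cbx8 were found in 13.6% of all promoters, and as many as in Suz12 in 2.6%. A stretch rich in CG was thus present both with H3K27me3 (Bmi1, 3.34 RPKM) and nearly without it (Suz12, 0.146 RPKM).

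**Figure D4:**
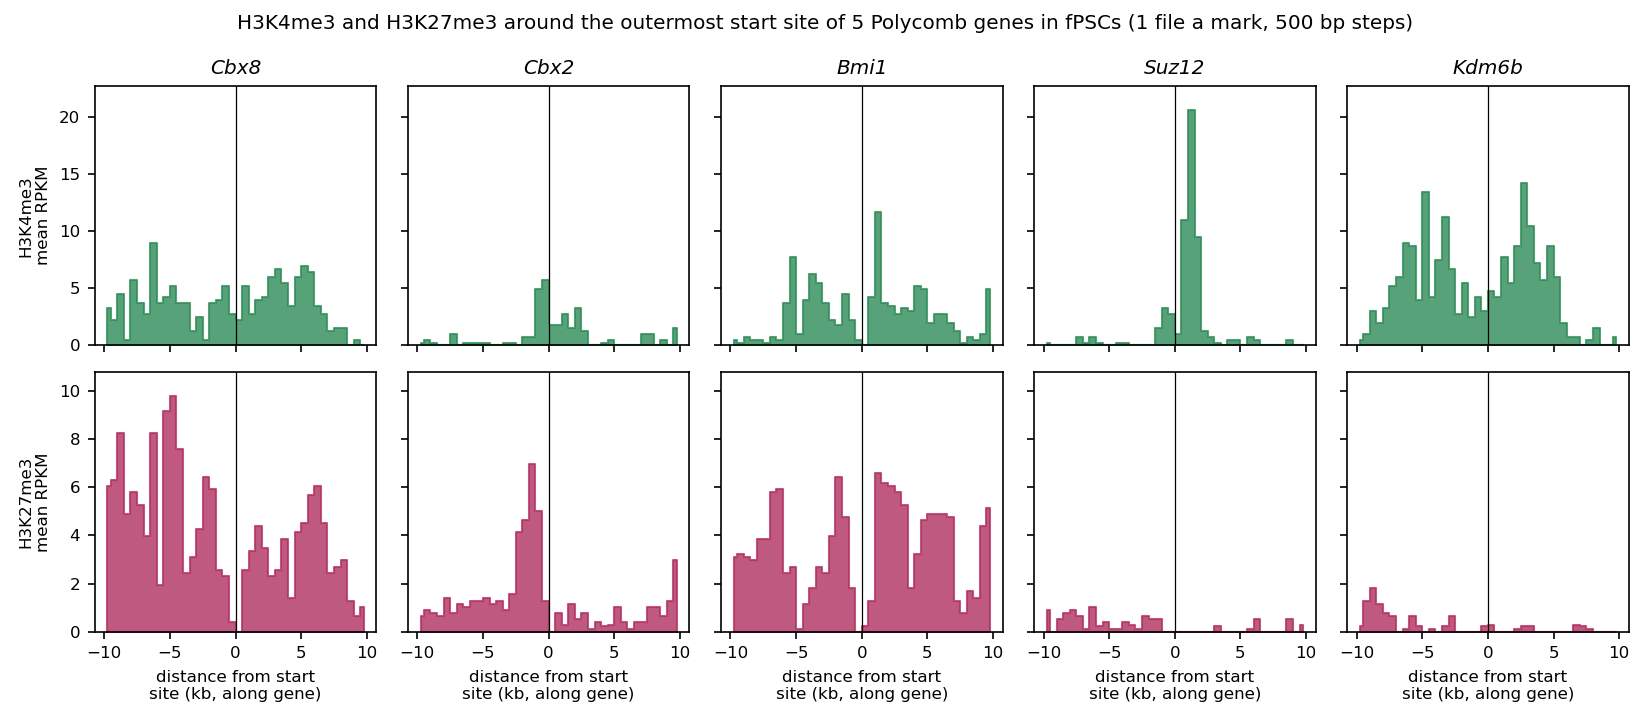
Mean RPKM of H3K4me3 (upper row) and H3K27me3 (lower row) in steps of 500 bp from 10 kb before to 10 kb after the outermost start site of 5 members in fPSCs, along the direction of the gene, with 1 file per mark and no replicates. Cbx8 and Bmi1 carry both marks over most of the window, Cbx2 a narrower block of H3K27me3 just before the start, and Suz12 and Kdm6b carry H3K4me3 with little H3K27me3 (0.146 and 0.114 RPKM within 5000 bp).

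Single fPSCs show how widely the genes were read among cells. The labels give 192 picked cells, 48 per clone; the tables hold 182, and 181 had at least 500 genes, with 1125 to 722865 counts per cell. No cell name is shared between the 2 tables, but 1 name occurs 2 times within a table. All cells are fPSCs, so nothing was compared between conditions, and the intervals given are Wilson 95% intervals that cover counting error only. Of the members, 30 appear in at least 1 table; Cbx8 is not listed in either, and Phf1 and Phf19 are listed for 2 clones only. Rbbp7 was read in 172 of 181 cells (95%, interval 90.8 to 97.4%), Ezh2 in 159 (87.8%, interval 82.3 to 91.8%) and Phc1 in 155 (85.6%, interval 79.8 to 90%). Summed over each clone's cells, Ezh2 was at 379 to 562 CPM (counts scaled to the clone's total) over the 4 clones, Suz12 at 104 to 288, Mtf2 at 183 to 270 and Phc2 at 46 to 50.6.

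In all, 11 members were read in over 50% of cells, and 5 in under 10%. The share of all genes past these cuts was not computed, so the counts describe the members only. Ezh1 was read in 5 of 181 cells (2.76%, interval 1.19 to 6.3%), and its CPM ran from 0 to 32.4 over the clones. The highest value was that of clone 2, where its 105 counts came from 2 of 45 cells. Bmi1 was read in 17 cells (9.39%, interval 5.95 to 14.5%), Pcgf1 in 15 (8.29%, interval 5.09 to 13.2%) and Cbx2 in 31 (17.1%, interval 12.3 to 23.3%), against 70 for Cbx7 (38.7%, interval 31.9 to 45.9%). Cbx7 was thus read in more cells than Cbx2 here, whereas in bulk fPSCs at P10 to P30 Cbx2 had the higher FPKM. The single-cell counts are not per length, so these orders are set side by side only.

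**Figure D5:**
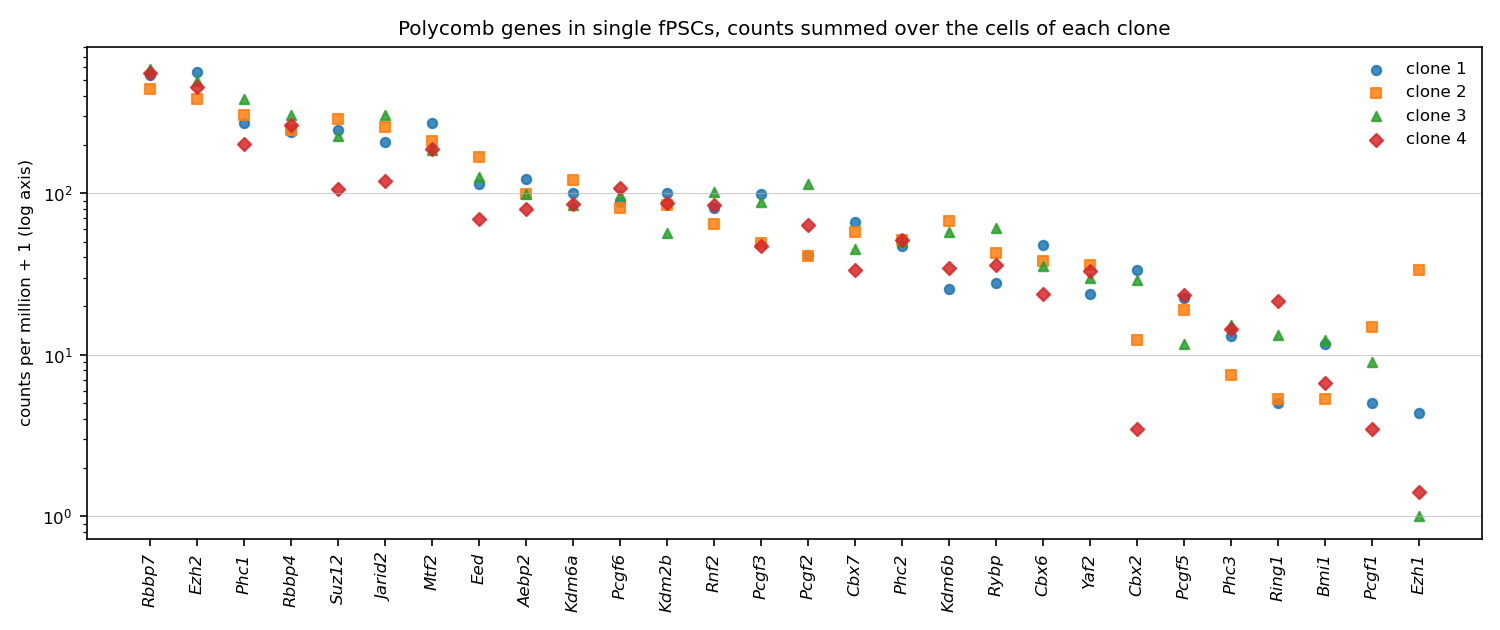
CPM plus 1 (log axis) of the 28 members listed for all 4 clones, summed over the cells of each clone (1 marker per clone), in order of the median. Rbbp7 and Ezh2 lead at 379 to 583 CPM, and Ezh1 spreads most, from 0 to 32.4 CPM, the latter from 2 of 45 cells in clone 2.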

How the data were processed

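All values came from the deposited files, and the 31 members and the gene lists were chosen with earlier results of these data known. The authors trimmed the bulk reads with cutadapt 1.11, aligned them with TopHat2 2.1.1 (mm9) and computed FPKM with Cufflinks 2.1.1, as deposited for 19 libraries; strand use in counting is not given in the sources used here. The ChIP-seq RPKM values in 100 bp bins were made by the authors with Bowtie2 2.2.2 after removal of duplicates and multiply mapped reads, and the DNA methylation fraction per window came from the authors' BS-Seeker2 alignment. Labels give 2 replicates for each, but 1 file of each was used and no spread can be stated. The single-cell counts were deposited by the authors per gene and cell, and whether they are reads or molecules is not given in the sources used here.

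Of 23608 entries, 4 with repeated names were left out. limma 3.58.1 (R 4.3.3, trend) was fitted to log2(FPKM + 1) of 15 libraries in 1 fit, with a gene kept at 1 FPKM in 2 or more of them, and the p-values were adjusted by Benjamini-Hochberg over 12562 genes. The script was tested on simulated data. Members were all named, and other genes by the size of their change among those past the threshold. Of the 31 members, 1 shares exons with a gene on its strand (Cbx6 with Npcd) and 7 with a gene on the opposite strand (Ezh2, Suz12, Rbbp4, Rbbp7, Mtf2, Kdm2b and Kdm6b), so their reads may be mixed. Replicate numbers did not pair the samples (correlations of the differences between replicates 0.20, -0.20 and -0.13). Alternatives were a pseudocount of 0.1, no filter, upper-quartile scaling, only the groups compared, robust moderation, a replicate block, each library left out and other sets of fPSC libraries; calling promoters by percentile was chosen after seeing the data.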

Additional observations from a re-analysis of the deposited data

Results flagged for a closer look

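Among the groups of 4 libraries or more, only the named-line fPSCs were searched for a library apart from the rest. Pcgf6 was at 25.6 FPKM in 46C P24 against 30.5 to 31.4 FPKM in the other 3 libraries, a gap of 0.854 of the range, over Dixon's 95% critical value. It was 1 of 31 members searched, and chance flags about 1 in 20 groups.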

How the results depend on the processing

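Of 845 alternative values for 72 calls over 24 members, 749 kept direction and threshold, 90 lost the threshold and 6 changed sign. All 6 came from the 4 named-line fPSC libraries in place of P10 to P30: -0.052 for Rbbp4, 0.13 for Phf1 and -0.26 for Kdm6b against mESCs, -0.076 for Pcgf2 and -0.37 for Kdm6b against EpiLCs, and -0.12 for Rbbp4 against EpiSCs. The count against mESCs then fell from 19 to 11. The cause was not tested. Calls kept under every alternative numbered 5 of 11 in EpiLCs, 14 of 17 in EpiSCs and 10 of 19 in fPSCs against mESCs, 3 of 9 in fPSCs against EpiLCs and 3 of 10 against EpiSCs. Leaving out 1 library gave 4 to 10 calls in fPSCs against EpiSCs (4 without EpiSCs replicate 2) and 0 to 1 in epiblast-derived fPSCs against fPSCs (1 without either epiblast-derived library). A pseudocount of 0.1 gave 4 members in place of 1 from day 2 to day 3 and 2 in place of 0 at P1. Calling promoters at the 90th percentile in place of z gave 6 for H3K27me3 and 10 for H3K4me3 in place of 0. Median promoter methylation was 0.036 within 500 bp in place of 0.162. With the replicate block 12, 18, 19, 8 and 10 members changed in the 5 comparisons between states, in the order of the report; Ring1 and Bmi1 were lost in fPSCs against EpiLCs. The files of FPKM give no read depth, so the counting error of low genes such as Cbx8, Phc3 and Phf19 is unknown.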
